A study of Homo sapiens with 4 samples.

Results

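Metallothioneins are small, cysteine-rich proteins that bind zinc, copper and other metal ions, and their human genes lie side by side on chromosome 16. The genes described here were MT1A, MT1B, MT1E, MT1F, MT1G, MT1H, MT1M, MT1X, MT2A and MT3. They were chosen by name, and every non-control probe whose RefSeq identifier led to 1 of these symbols was taken, which gave 16 probes for 10 genes out of 41000 probes and 17721 named genes on the array. RNA came from OVSAYO, a human line of ovarian cancer cells that belongs to the clear cell carcinoma (CCC) type. Cells were transfected with a non-specific negative control siRNA (NS-si) or with siRNA against the transcription factor Sp1 (Sp1-si). They were kept for 40 h, as the sample labels have it. A figure legend of the paper gives a shorter time, so this duration is uncertain. The cells then received either 0.5 mM CoCl2 for 4 h (NS-si → CoCl2 and Sp1-si → CoCl2) or no CoCl2 (NS-si and Sp1-si, called untreated below). The study asked which genes respond to this hypoxia-mimicking agent in a manner that depends on Sp1. Each of the 4 conditions was measured on 1 single-colour array, so no replicate and no p-value stand behind any difference below. All conditions share the same cell line, the transfection and the slide. The paper lists more than 1 non-specific siRNA and more than 1 siRNA for each target. It does not say which were used for these arrays, so the control siRNA and the Sp1 siRNA may have come from different suppliers.

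In most tissues the MT1 genes and MT2A are transcribed at a low basal rate that rises when cells meet zinc, cadmium, glucocorticoids or oxidative stress. The zinc-sensing transcription factor MTF1 binds short metal response elements (MREs) in their promoters, and GC boxes, to which Sp1 binds, are also found there. MT3 is best known from the brain, and MT4 from squamous epithelium. Cobalt ions stabilise the hypoxia-inducible factors, which bind hypoxia response elements (HREs), and for this reason CoCl2 is used to mimic hypoxia.

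The promoters of 4 of the 10 genes were in the RefSeq promoter table used here, and they are shown because Sp1 was the silenced factor and CoCl2 the metal salt. Each stretch is the 250 bases before the annotated start of the gene on the plus strand of GRCh38.p14, and capitals mark the MRE matches on either strand. The 4 windows are chr16:56608334-56608583 for MT2A, chr16:56651636-56651885 for MT1B, chr16:56669564-56669813 for MT1H and chr16:56682220-56682469 for MT1X.
MT2A: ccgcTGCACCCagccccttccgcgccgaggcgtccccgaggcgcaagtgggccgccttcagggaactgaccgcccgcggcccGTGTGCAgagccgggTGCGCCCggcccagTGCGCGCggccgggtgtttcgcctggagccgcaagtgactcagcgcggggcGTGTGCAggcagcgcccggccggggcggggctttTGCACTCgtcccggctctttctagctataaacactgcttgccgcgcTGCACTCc
MT1B: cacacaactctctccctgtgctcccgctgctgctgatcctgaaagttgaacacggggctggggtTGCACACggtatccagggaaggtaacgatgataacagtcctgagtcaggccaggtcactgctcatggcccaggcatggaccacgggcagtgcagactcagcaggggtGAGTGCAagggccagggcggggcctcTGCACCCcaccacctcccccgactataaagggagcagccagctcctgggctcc
MT1H: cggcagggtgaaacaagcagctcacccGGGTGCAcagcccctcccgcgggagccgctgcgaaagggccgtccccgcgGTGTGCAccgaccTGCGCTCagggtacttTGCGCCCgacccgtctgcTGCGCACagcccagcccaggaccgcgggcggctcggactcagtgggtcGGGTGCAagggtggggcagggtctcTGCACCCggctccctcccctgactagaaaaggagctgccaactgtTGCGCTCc
MT1X: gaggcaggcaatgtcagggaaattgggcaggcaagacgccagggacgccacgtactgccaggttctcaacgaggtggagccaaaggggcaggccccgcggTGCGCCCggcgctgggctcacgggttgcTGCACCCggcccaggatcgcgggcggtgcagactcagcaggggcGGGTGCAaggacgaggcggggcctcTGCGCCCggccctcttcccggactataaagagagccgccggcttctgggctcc

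The MRE was searched as TGCACNC or TGCGCNC, the GC box as GGGCGG, the HRE core as ACGTG and the TATA box as TATAAA, each on both strands. The MT2A promoter held 7 MRE matches and 2 GC boxes, and the MT1H promoter held 8 MRE matches and 1 GC box. The MT1B promoter held 3 MRE matches and 1 GC box, and the MT1X promoter held 4 MRE matches and 2 GC boxes, with 1 MRE match overlapping a GC box. A TATA match lay at 25 to 30 bases before the start in MT1B and MT1X and at 24 to 29 bases in MT2A, and the MT1H window held none. The HRE core was matched only in the MT1X window, 1 time. Of 35116 promoters of the same length in the table, 24.8% held an MRE match, 42.6% a GC box, 18.5% an HRE core and 10.7% a TATA match, and 1.58% held 3 or more MRE matches. A match describes the letters of the window and does not show that a factor was bound.

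**Figure D1:**
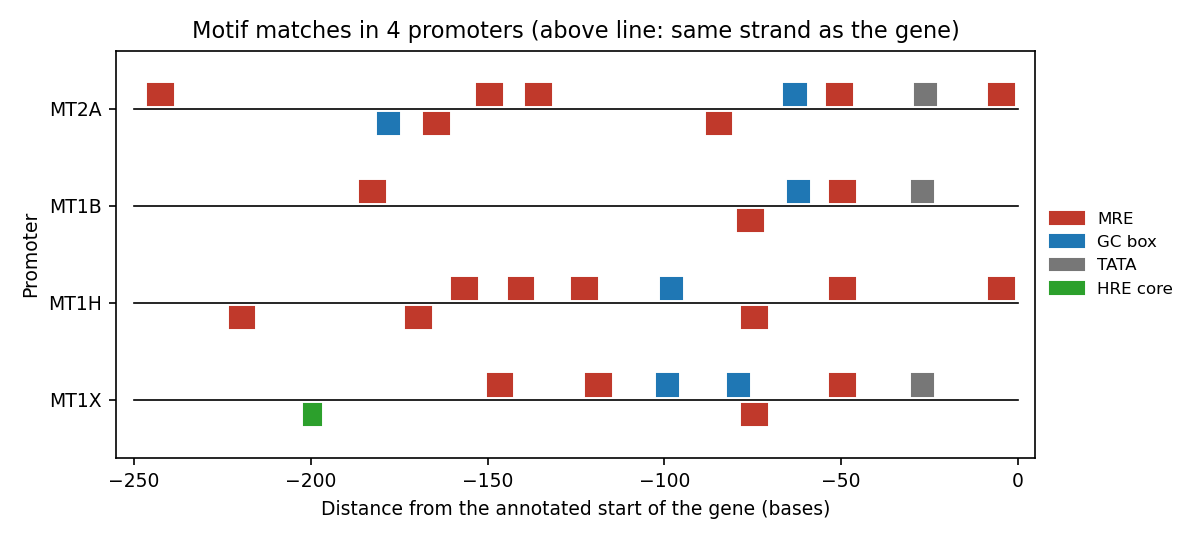
Motif matches in the promoters of MT2A, MT1B, MT1H and MT1X, by distance in bases from the annotated start of each gene. Boxes above a line are on the strand of the gene and boxes below it on the other strand. All 4 promoters hold at least 3 MRE matches and at least 1 GC box. Each belongs to a gene that CoCl2 raised, and no promoter of an unraised member is shown.

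The epithelial genes EPCAM, KRT8, KRT18, CDH1 and KRT19 were well above background on all 4 arrays, as was NAPSA, a marker of CCC, which was lower in Sp1-silenced cells. Of the genes of other cell types or cancers, PTPRC, COL3A1, PECAM1, CDH5 and WT1 did not stand well above background anywhere, while CD3E, LUM, ESR1 and PGR did on all 4 arrays, with signals up to 766. The part of these genes in any result was not tested. SP1 itself fell by 3.77 on the log2 scale in Sp1-silenced cells without CoCl2 and fell by 3.87 with it, on the probe with 10 spots, from signals of 553 and 429 to 39.2 and 38.7. The 75th percentile of the signals, by which each array was scaled, ranged from 977 in NS-si → CoCl2 to 1285 in Sp1-si → CoCl2.

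All 16 metallothionein probes were well above background on all 4 arrays, and none was flagged as an outlier or saturated. Signals below are processed intensities in arbitrary units, and ratios are differences of log2 signals after scaling each array to its 75th percentile. A probe was counted as raised or lowered when this log2 ratio was at least 1 in size. The value after ± is a technical SD, taken from probes of like signal that were spotted 10 times on each array, because each metallothionein probe had 1 spot. It leaves out the variation between cultures, transfections and hybridisations.

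CoCl2 raised 7 of the 10 genes in NS-si cells and the same 7 in Sp1-silenced cells. These were MT1B, MT1E, MT1F, MT1G, MT1H, MT1X and MT2A. Without scaling between arrays MT1F lost its call in NS-si cells, at 0.92. In bulk RNA, a change in the number of responding cells and a change in RNA per cell cannot be told apart. By probe, 11 of 16 were raised in NS-si cells, where 4.53% of 32876 probes across the array were raised, and 12 of 16 were raised in Sp1-silenced cells, where 3.72% of 32742 were. None of the 16 was lowered in either, against 4.35% and 6.17% of all probes. The rises of the 11 probes raised in both ran from 2.22- to 4.55-fold in NS-si cells and from 3.49- to 12.6-fold in Sp1-silenced cells. Over the 10 genes, each by its brightest probe, the log2 ratio had a median of 1.58 in NS-si and 3.04 in Sp1-silenced cells, while the medians of all measured probes were 0.02 and -0.01.

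MT2A, usually the most abundant metallothionein transcript in human cells, had 3 probes. On the brightest of them its signal was 5613 in untreated NS-si, 7009 in untreated Sp1-si, 21857 in NS-si → CoCl2 and 94115 in Sp1-si → CoCl2. Both CoCl2-treated arrays lay above both untreated ones, and the array with Sp1 siRNA and CoCl2 was the highest. The log2 ratio to CoCl2 was 2.19 ± 0.028 in NS-si cells, a rise of 4.55-fold, and 3.52 ± 0.026 in Sp1-silenced cells, a rise of 11.5-fold. Of 31319 probes measured in both NS-si arrays, 118 had a higher ratio than this probe. The other two probes gave log2 ratios of 2.04 and 2.07 in NS-si cells and 3.52 and 3.54 in Sp1-silenced cells, and their signals differed from each other by at most 1.92% on any array.

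MT1X, an isoform expressed in many tissues, had 2 probes. The brighter one gave 1591 in untreated NS-si, 1828 in untreated Sp1-si, 4677 in NS-si → CoCl2 and 24862 in Sp1-si → CoCl2. The order of the conditions was that of MT2A. Its log2 CoCl2 ratio came to 1.78 ± 0.030 in NS-si and 3.54 ± 0.028 in Sp1-silenced cells. The other probe gave 1112, 1311, 3402 and 19293 in the same order and the largest CoCl2 ratio of the family, 3.65 ± 0.030 in Sp1-silenced cells or 12.6-fold, which 10 of 30688 measured probes exceeded.

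MT1H encodes a further MT1 isoform, and its brighter probe by mean signal gave 1564 in untreated NS-si, 1801 in untreated Sp1-si, 4622 in NS-si → CoCl2 and 24165 in Sp1-si → CoCl2. The log2 CoCl2 ratio came to 1.79 ± 0.030 in NS-si and 3.52 ± 0.028 in Sp1-silenced cells. The other MT1H probe behaved less strongly, with signals of 2090, 2275, 3306 and 13888. Its ratio of 0.89 ± 0.030 in NS-si cells did not pass the fold limit, and its ratio of 2.39 ± 0.030 in Sp1-silenced cells did. The brighter MT1H probe and the brighter MT1X probe differed by at most 2.89% on every array. The coding sequences of the MT1 genes are closely related, the probe sequences were not used here, and how far a probe also bound transcripts of its neighbours was not tested.

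MT1G had 2 probes. The brighter gave 1096 in untreated NS-si, 1251 in untreated Sp1-si, 3111 in NS-si → CoCl2 and 13355 in Sp1-si → CoCl2, and the log2 CoCl2 ratios were 1.73 ± 0.030 and 3.19 ± 0.030. The dimmer gave 398, 471, 782 and 3393, with ratios of 1.20 ± 0.040 and 2.62 ± 0.034. Both placed the conditions in the same order, but the dimmer probe gave the smaller CoCl2 ratio in both cell populations.

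MT1E gave 359 in untreated NS-si, 399 in untreated Sp1-si, 1092 in NS-si → CoCl2 and 5101 in Sp1-si → CoCl2. The log2 CoCl2 ratios were 1.83 ± 0.037 and 3.45 ± 0.033, a rise of 3.56-fold in NS-si cells and 10.9-fold in Sp1-silenced cells. MT1B gave 1327 in untreated NS-si, 1329 in untreated Sp1-si, 3039 in NS-si → CoCl2 and 11470 in Sp1-si → CoCl2. Its untreated arrays gave nearly the same signal, and its CoCl2 ratios were 1.42 ± 0.030 and 2.89 ± 0.030.

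MT1F differed from the other raised genes in its untreated level. It gave 538 in untreated NS-si, 1102 in untreated Sp1-si, 1020 in NS-si → CoCl2 and 4497 in Sp1-si → CoCl2. The untreated Sp1-si array thus lay at about the level of the NS-si → CoCl2 array. The CoCl2 ratios of MT1F were 1.15 ± 0.038 in NS-si cells and 1.81 ± 0.032 in Sp1-silenced cells, the smallest among the brightest probes of the 7 raised genes.

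MT1A, MT3 and MT1M did not pass the fold limit with CoCl2 in either cell population. MT1A gave 20844 in untreated NS-si, 21754 in untreated Sp1-si, 18846 in NS-si → CoCl2 and 38940 in Sp1-si → CoCl2. The array with both treatments was the highest, and the other 3 lay close together. The log2 CoCl2 ratio of MT1A was 0.08 ± 0.028 in NS-si cells, and turned to -0.15 without scaling between arrays, and it was 0.62 ± 0.026 in Sp1-silenced cells.

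The brighter probe of MT3, the member best known from the brain, gave 14236 in untreated NS-si, 14466 in untreated Sp1-si, 14279 in NS-si → CoCl2 and 20865 in Sp1-si → CoCl2. Relative to the 75th percentile of each array these signals were 12.5, 13.2, 14.6 and 16.2, and the CoCl2 ratios were 0.23 ± 0.028 and 0.30 ± 0.026. A second, dim MT3 probe gave 23.7, 31.8, 25.1 and 20.5 and did not follow the first. Its ratios were 0.31 ± 0.17 in NS-si cells and -0.86 ± 0.15 in Sp1-silenced cells. MT1M was also dim, with signals of 17.9 in untreated NS-si, 19.9 in untreated Sp1-si, 13.5 in NS-si → CoCl2 and 28.2 in Sp1-si → CoCl2. Its ratios of -0.18 ± 0.18 and 0.28 ± 0.16 changed sign under another background correction, to 0.08 and -0.11.

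**Figure D2:**
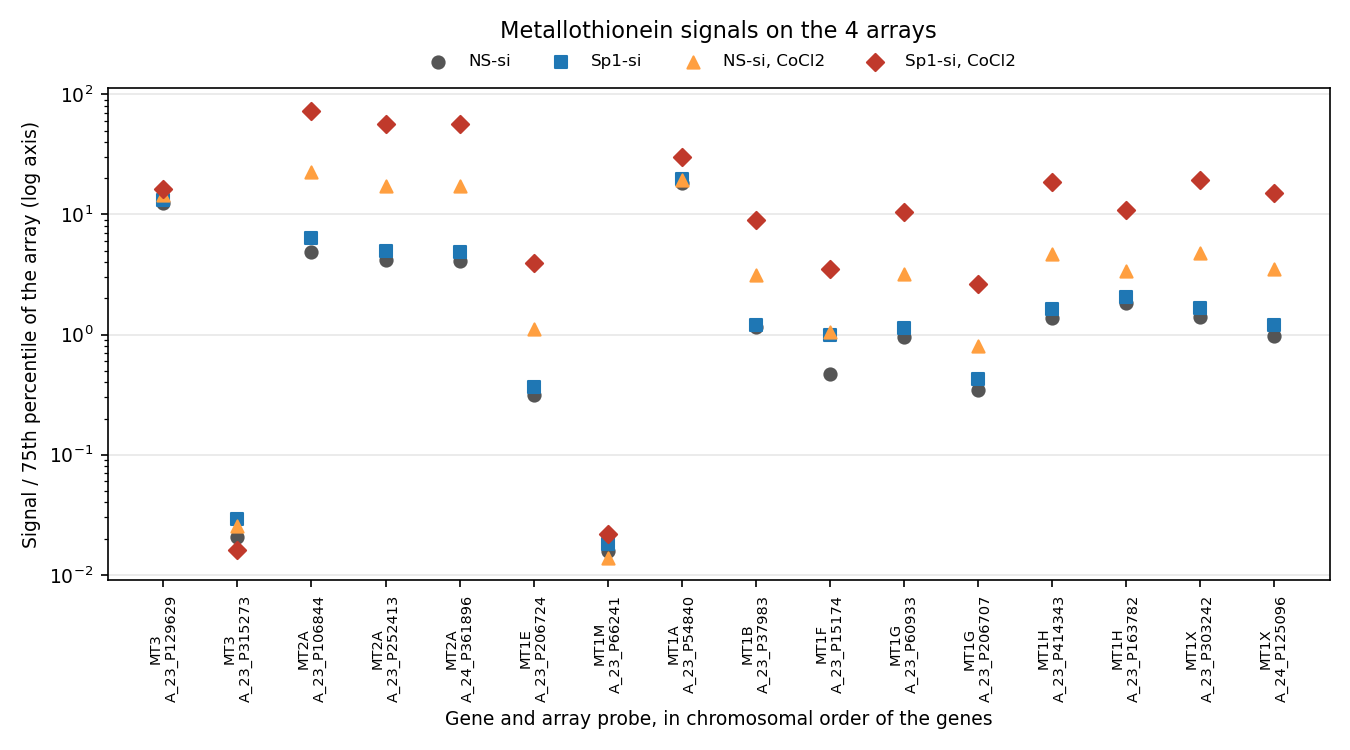
Signals of the 16 metallothionein probes on the 4 arrays, divided by the 75th percentile of each array, on a log axis and in the chromosomal order of the genes. Each symbol is 1 array. Sp1-si → CoCl2 is the highest array for 15 of the 16 probes, and the exception is the dim MT3 probe at 0.016 to 0.029 times the percentile.

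Without CoCl2, silencing Sp1 left most metallothionein signals within the fold limit. A single probe of the 16, that of MT1F, was higher after Sp1 silencing, at a log2 ratio of 1.09 ± 0.030 or 2.13-fold, where 5.5% of 33061 probes were higher. None was lower, where 5.89% of all probes were. The median over the 10 genes was 0.23, against -0.02 for all measured probes. The ratios of MT2A were 0.23 to 0.37 over its 3 probes, those of MT1X were 0.25 and 0.29, and that of MT1B was 0.06 ± 0.027.

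With CoCl2, the same 7 genes that CoCl2 raised were higher after Sp1 silencing. This held for 12 of 16 probes, where 6.31% of 32604 probes were higher, and no metallothionein probe was lower, where 9.64% of all probes were. MT1X had the largest ratios, 2.01 ± 0.029 and 2.11 ± 0.031 on its 2 probes, and MT1H gave 1.99 ± 0.029 on its brighter probe. MT1E gave 1.83 ± 0.035, MT1F 1.75 ± 0.033, MT2A 1.71 ± 0.024, MT1G 1.71 ± 0.032 and MT1B 1.52 ± 0.032. On the brightest probes these 7 genes thus ran from 1.52 to 2.01. MT1A at 0.65 ± 0.023, MT1M at 0.67 ± 0.17, which was -0.07 under another background correction, and the bright MT3 probe at 0.15 ± 0.023 stayed below the limit. Without scaling between arrays MT1A reached 1.05 and MT1M 1.06, which made 14 probes higher. The median of the 10 genes was 1.71, and that of all measured probes was -0.06.

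The CoCl2 ratio in Sp1-silenced cells minus that in NS-si cells used all 4 arrays and so shares them with the ratios above. This difference was above 0 for 15 of 16 probes and was at least 1 for 11 probes of 6 genes, MT1B, MT1E, MT1G, MT1H, MT1X and MT2A. Across the array 1.05% of 30242 probes had a difference of at least 1, and 4.86% had a difference of -1 or less. Without scaling between arrays these shares became 6.44% and 1.18%, with 12 metallothionein probes at 1 or more. By gene, the difference was 1.76 ± 0.043 for MT1X, 1.73 ± 0.043 for MT1H, 1.62 ± 0.048 for MT1E, 1.46 ± 0.043 for MT1B and MT1G and 1.34 ± 0.036 for MT2A on the brightest probe of each. MT1F at 0.66 ± 0.045, which was 1.11 without scaling, and MT1A at 0.54 ± 0.036 had smaller positive differences. The dim MT1M probe gave 0.46 ± 0.26, which was -0.20 under another background correction. The bright MT3 probe at 0.07 ± 0.036 was near 0. The median over the 10 genes was 1.40, against -0.01 for all measured probes. On the dim MT3 probe the difference was -1.17 ± 0.21, the only value at or below -1 among the 16.

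Of 608 probes on the array that were well above background everywhere and raised by CoCl2 in both NS-si and Sp1-silenced cells, 40 had a difference of at least 1, and 10 of those 40 were metallothionein probes. Fewer metallothioneins than probes stand behind this number, because MT1G, MT1X and MT2A were each represented by more than 1 of these probes. The brighter MT1H and MT1X probes, which differed by at most 2.89%, were also counted apart. The count of 40 was made with the main scaling only. Over all 30242 probes, a difference of at least 1 was found for 319, for 1948 without scaling and for 68 under another background correction. The metallothionein probes among them numbered 11, 12 and 11. The MT1X probe with the larger difference, 1.82 ± 0.043, was exceeded by 34 of 30242 probes.

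**Figure D3:**
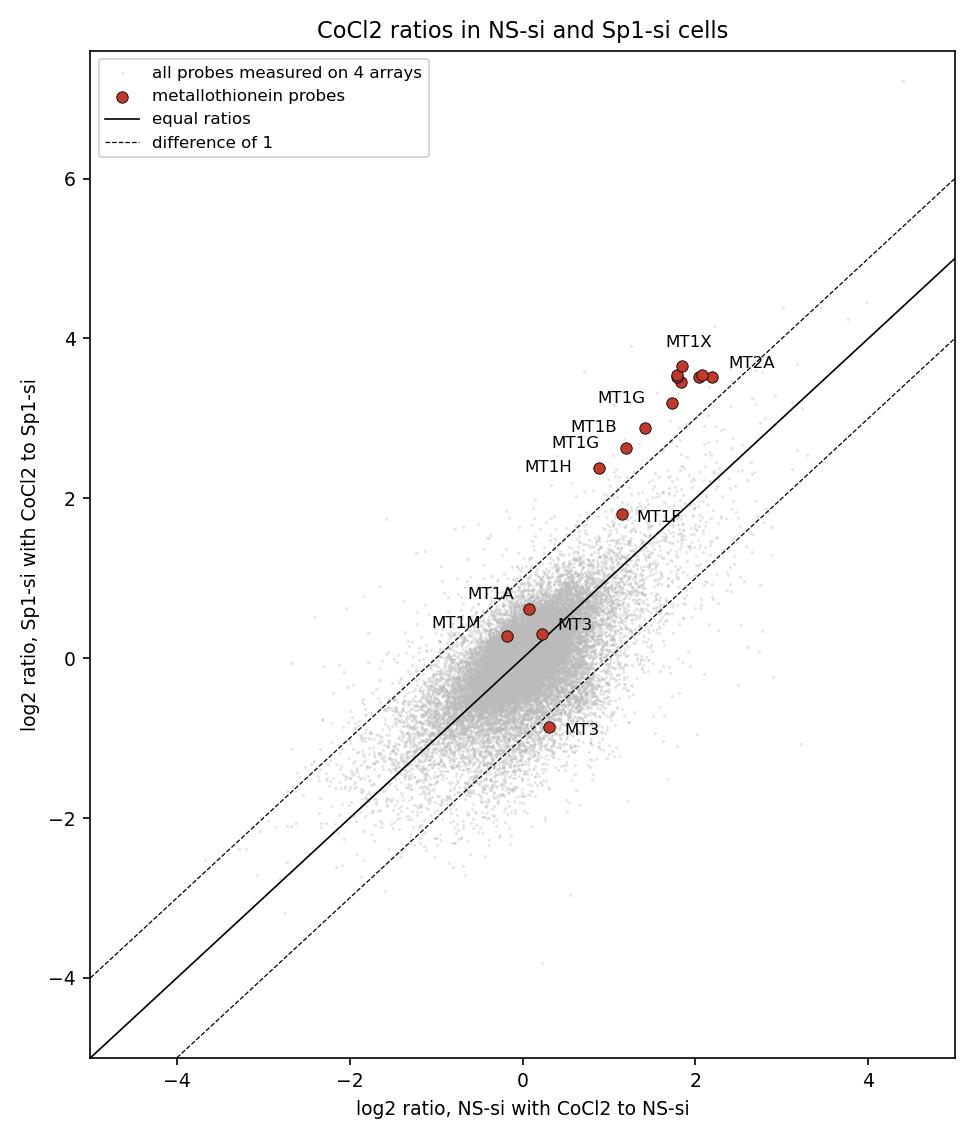
Log2 CoCl2 ratio in Sp1-silenced cells against that in NS-si cells for all probes well above background on the 4 arrays (grey) and the 16 metallothionein probes (red), with the line of equal ratios and lines at a difference of 1. The 11 probes of MT1B, MT1E, MT1G, MT1H, MT1X and MT2A lie above the upper dashed line, and MT1F lies between the lines.

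In the order of the genes along chromosome 16, MT4 and MT3 come first, followed by MT2A, the MT1L pseudogene, MT1E, MT1M, MT1A, MT1B, MT1F, MT1G, MT1H and MT1X, with further pseudogenes among them. The 3 genes that did not pass the limit do not form a block. MT3 stands at the MT2A end, and MT1M and MT1A lie between MT1E and MT1B, which were both raised. The 5 neighbours from MT1B to MT1X were all raised by CoCl2 in both cell populations, except that MT1F was at 0.92 in NS-si cells without scaling between arrays.

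Of 8 other loci named after the family, 3 had a probe. MT1L, a transcribed pseudogene, gave 863 in untreated NS-si, 955 in untreated Sp1-si, 2570 in NS-si → CoCl2 and 11153 in Sp1-si → CoCl2. Its CoCl2 ratios were 1.80 ± 0.031 and 3.32 ± 0.030. They lay between those of the brighter MT1G probe, 1.73 and 3.19, and those of its neighbour MT1E, 1.83 and 3.45. The brightest probe of MT2A, its neighbour on the other side, gave 2.19 and 3.52. How far the MT1L probe also bound transcripts of the other genes was not tested. MT4 was well above background on 0 of 4 arrays. TESMIN, a gene outside the cluster once named as metallothionein-like, gave ratios of 0.33 and 0.29 on its brighter probe, and on its dimmer probe -1.63 and -0.03, so that its probes disagreed.

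**Figure D4:**
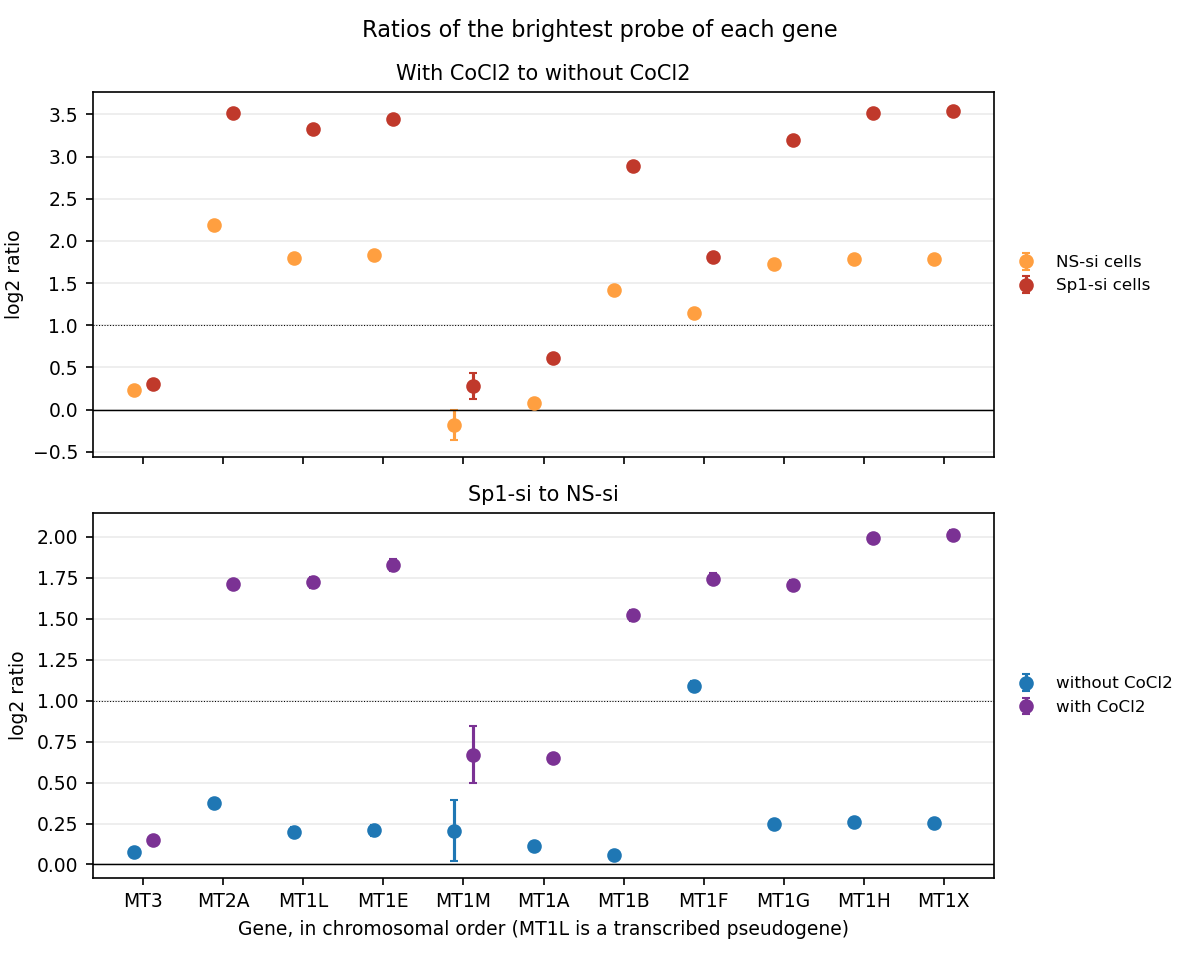
Log2 ratios of the brightest probe of each metallothionein gene and of the MT1L pseudogene in chromosomal order, with CoCl2 to without (top) and Sp1-si to NS-si (bottom). Bars are technical SDs and are mostly smaller than the points, and the dotted line is the limit of 1. With CoCl2 the Sp1-si to NS-si ratios of MT1B, MT1E, MT1F, MT1G, MT1H, MT1X, MT2A and MT1L lie between 1.52 and 2.01.

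The genes whose 4-array profile was closest to that of the brightest MT2A probe were sought among 20916 probes of other genes that stood well above background on every array. That MT2A probe had the highest mean signal of the metallothionein probes, whereas MT1A had the highest mean log2 signal. Likeness was the Euclidean distance between log2 values centred on their own mean. MT1L was the closest at 0.319, followed by ENTREP1 at 0.423, the stress-induced transcription factor ATF3 at 0.662, the hypoxia-responsive gene NDRG1 at 0.692 and TCAF2 at 0.709. ENTREP1 was dim and gave 56.7 in untreated NS-si, 71.2 in untreated Sp1-si, 158 in NS-si → CoCl2 and 758 in Sp1-si → CoCl2, a difference between its CoCl2 ratios of 1.48 ± 0.095. The matched probes of ATF3, NDRG1 and TCAF2 were also dim. They gave 41.1, 57.5 and 35.1 in untreated NS-si and 542, 699 and 509 in Sp1-si → CoCl2. These probes rose more than MT2A with CoCl2 in NS-si cells, at log2 ratios of 2.75, 2.69 and 2.92. Their differences of 0.20, 0.49 and 0.36 stayed below the limit. The list depends on the reference. With the MT1A probe in its place, the closest genes were CITED2, EFCAB12, WDR47, NKX2-5 and ZFP1. With 4 arrays, such a distance describes these arrays only.

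A list of 8 genes that respond to metals or handle them was set beside the family. All were well above background on all arrays. CoCl2 raised 2 of the 8 in NS-si cells, and these were HMOX1, which degrades haem, and GCLC, the catalytic subunit of the enzyme that starts glutathione synthesis. In Sp1-silenced cells CoCl2 raised 3, SLC30A1, GCLC and HMOX1, and lowered 2, MTF1 and SLC39A10. SLC30A1 passed the limit only narrowly, at 1.01. Over all probes 4.53% were raised in NS-si cells, and 3.72% were raised and 6.17% lowered after Sp1 silencing. The list medians were 0.16 and 0.50.

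MTF1, the factor that binds MREs, gave 4584 in untreated NS-si, 7409 in untreated Sp1-si, 4216 in NS-si → CoCl2 and 2741 in Sp1-si → CoCl2. The array with both treatments was thus the lowest for MTF1, while it was the highest for the raised metallothioneins. The log2 CoCl2 ratio of MTF1 came to 0.10 ± 0.030 in NS-si and -1.66 ± 0.028 in Sp1-silenced cells, a difference of -1.76 ± 0.043. Its dim second probe, at 28.9 to 61.3, did not show this, with ratios of 0.18 and -0.05.

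SLC30A1, a zinc exporter and a known MTF1 target, gave 9188 in untreated NS-si, 6252 in untreated Sp1-si, 9582 in NS-si → CoCl2 and 14705 in Sp1-si → CoCl2. Its CoCl2 ratio came to 0.29 ± 0.029 in NS-si and 1.01 ± 0.027 in Sp1-silenced cells, a difference of 0.72 ± 0.036. SLC39A10, a zinc importer, gave 2274, 966, 1531 and 437 in the same order, and was lower in Sp1-silenced cells both without CoCl2, at -1.18 ± 0.031, and with it, at -2.20 ± 0.035.

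GCLC gave 3938 in untreated NS-si, 661 in untreated Sp1-si, 21673 in NS-si → CoCl2 and 9424 in Sp1-si → CoCl2. It was lower in Sp1-silenced cells in both states, at -2.52 ± 0.025 and -1.60 ± 0.030, a direction opposite to that of the metallothioneins with CoCl2, yet its CoCl2 ratio was 0.92 ± 0.043 larger after Sp1 silencing. HMOX1 gave 18562 in untreated NS-si, 28579 in untreated Sp1-si, 211173 in NS-si → CoCl2 and 224414 in Sp1-si → CoCl2, with CoCl2 ratios of 3.73 ± 0.028 and 2.75 ± 0.026. The growth factor PGF had ratios of 0.07 ± 0.10 and 0.74 ± 0.086, and the selenoprotein genes SELENOH and SELENOW had ratios between -0.32 and 0.27.

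**Figure D5:**
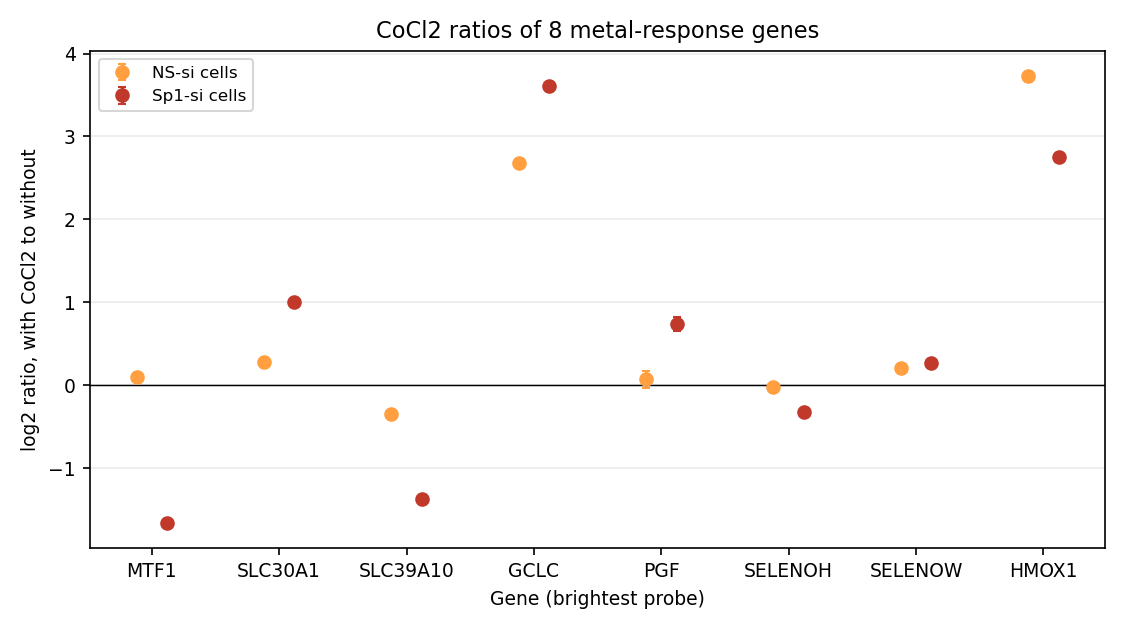
Log2 CoCl2 ratios in NS-si and Sp1-silenced cells of 8 metal-response genes, each by its brightest probe, with technical SDs as bars. MTF1 and SLC39A10 have ratios of -1.66 and -1.37 in Sp1-silenced cells, and GCLC and HMOX1 lie above 2 in both.

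Among the 24 zinc transporter genes, which move zinc out of the cytosol (SLC30) or into it (SLC39), all had a probe, and 22 were well above background on all 4 arrays. Of 23 measured in each comparison, 0 were raised and 1, SLC39A12, was lowered in NS-si cells. In Sp1-silenced cells 1, SLC30A1, was raised, only narrowly at 1.01, and 2, SLC39A10 and SLC39A12, were lowered. These counts were near the shares of all probes, 4.53% raised and 4.35% lowered in NS-si and 3.72% and 6.17% in Sp1-silenced cells. The median CoCl2 ratio was -0.04 in both. SLC39A12 was dim, with signals of 9.97 in NS-si → CoCl2 and 9.07 in Sp1-si → CoCl2, where it was not well above background. The differences of the CoCl2 ratios ran from -1.02 for SLC39A10 to 0.72 for SLC30A1, with a median of -0.06, against 1.40 for the metallothioneins. Without CoCl2, 2 of 23 measured transporters were higher in Sp1-silenced than in NS-si cells and 3 were lower. Over all probes 5.5% were higher and 5.89% lower. With CoCl2 the numbers were again 2 and 3 of 23, against 6.31% and 9.64% of all probes. In both states the lower ones were SLC39A8, SLC39A10 and SLC39A11. The higher ones without CoCl2 were SLC30A3, at 1.58 ± 0.049, and the dim SLC39A12, at 1.16 ± 0.20. With CoCl2 they were SLC30A3, at 2.03 ± 0.043, and SLC30A9, narrowly at 1.03 ± 0.060. The ratio of SLC30A3 with CoCl2 was thus about as large as that of MT1X, but SLC30A3 was also higher without CoCl2.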

How the data were processed

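OVSAYO RNA was measured on 4 single-colour arrays, 1 for each condition. The scanner output used here holds each intensity as it was written by Agilent Feature Extraction 10.5.1.1. It had background subtraction and detrending within the array, with no normalization between arrays. The value table deposited by the authors holds the same intensity multiplied by 1 constant per array. These constants ranged from 1.25 for Sp1-si → CoCl2 to 1.58 for NS-si → CoCl2, so that table is scaled between arrays. Main values were log2 processed signals minus the 75th percentile of the non-control, non-outlier spots of the array. A probe was well above background when at least 50% of its spots were. Of 29877 spots with a RefSeq identifier, 28463 matched a gene. The brightest probe of a gene was that with the highest mean log2 signal over the 4 arrays. The technical SD was the median over the 50 probes with 10 spots that were nearest in signal. There were no replicates and no tests, and precision is limited by having 4 arrays.

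The text names every probe of the 10 genes, the other family loci on the array, the 8 metal-response genes and zinc transporters past the limit. It also names the 5 genes closest to the brightest MT2A probe and the 5 closest to MT1A. The members and lists were chosen with earlier results of these data known. The alternatives tried were no scaling, scaling by the median or by quantiles, a percentile taken over only those probes detected on all 4 arrays, the authors' value table, kept outlier spots, a floor at the 5th percentile of detected signals, all probes of a gene averaged, other filters and a limit of 0.5. A normexp correction with an offset of 50 on median spot signals was added after the data were seen. The counting was tested on simulated data. Python 3.11.15, numpy 2.4.6, pandas 2.3.3, matplotlib 3.10.9, R 4.3.3 and limma 3.58.1 were used. Some results are left out of this text.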

Additional observations from a re-analysis of the deposited data

Results flagged for a closer look

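The 16 metallothionein probes and the brightest probes of the 8 metal-response genes were searched for CoCl2 ratios that differed in sign between cell populations. In 3 of these probes the signs in NS-si and Sp1-silenced cells were opposite, each ratio beyond the technical SD. Other probes, such as those of the zinc transporters, were not searched. With 1 array per condition the difference was not tested. The log2 ratio of MT1M was -0.18 in NS-si and 0.28 in Sp1-silenced cells, a difference of 0.46 on a probe with signals of 13.5 to 28.2, and with normexp the difference was -0.20. The dim MT3 probe went from 0.31 to -0.86, a difference of -1.17, while the bright MT3 probe gave 0.23 and 0.30. MTF1 went from 0.10 to -1.66, a difference of -1.76, on its bright probe, and its dim probe gave 0.18 and -0.05.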

How the results depend on the processing

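No median or probe ratio past the limit of 1 changed direction under any alternative that was run. The median CoCl2 ratio of the 10 genes in NS-si cells was 1.35 without scaling, 1.53 with a percentile taken over only those probes detected on all arrays, 1.50 in the authors' value table, 1.51 with normexp and 1.38 with the probes of a gene averaged. In Sp1-silenced cells it was 3.14 with median scaling, 3.26 without scaling, 2.98 in the authors' table and 2.90 with averaged probes. The Sp1-si to NS-si median was 0.17 without scaling and 0.27 in the authors' table without CoCl2, and with CoCl2 it was 1.82 with median scaling, 2.10 without scaling, 1.74 with that percentile and 1.77 in the authors' table. The median difference of the CoCl2 ratios was 1.50 with median scaling and 1.85 without scaling. At a limit of 0.5, 1 metallothionein probe was lowered by CoCl2 in Sp1-silenced cells and 1 was lower in Sp1-silenced cells with CoCl2. The probe with a difference at or below -1 was no longer counted (0 probes) without scaling or with normexp. The other counts stayed within 1.5 times, with 9 to 12 probes raised in NS-si cells, 12 to 13 raised in Sp1-silenced cells, 12 to 14 higher after Sp1 silencing with CoCl2 and 11 to 13 with a difference of at least 1.

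Leaving out the scaling moves all ratios by -0.23, 0.22, -0.05, 0.40 and 0.45 for the 2 CoCl2 ratios, the 2 siRNA ratios and the difference. Over all probes, the higher share of those past the limit of the difference was 17.8%, and it was 28.6% with quantile or median scaling, 84.5% without scaling and 8.32% with normexp. For CoCl2 in NS-si cells this share was 51.0%, 28.3% without scaling and 64.2% with normexp, for CoCl2 in Sp1-silenced cells 37.6%, 48.9% with median scaling and 63.3% without scaling, and for Sp1-si to NS-si with CoCl2 39.6%, 50.3% and 76.1% in the same order. The signs of ratios under 1 in size changed for MT1A in 1 case and for MT1M in 4, the MT1M cases with normexp. The planned normexp correction on mean spot signals was not run, because the files used here give median and not mean spot signals, and the version on median signals took its place. No paired analysis was possible because each condition had 1 array. Signal over background limits MT1M and the dim MT3 probe, and the cause of the changes was not tested.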
